A study of Homo sapiens with 4 samples.

Results

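The 7 keratins KRT5, KRT14, KRT15, KRT6A, KRT6B, KRT16 and KRT17 were followed in MCF10A cells, a non-tumorigenic line of human breast epithelium, after RNA interference against LMNA, the gene of lamins A and C. The members are, by name alone, the rows whose gene name equals one of these keratins in both deposited tables, 7 of 58051 gene identifiers. Poly(A) RNA was sequenced from 2 libraries of cells transfected with an siRNA against LMNA (siLMNA 1 and 2) and 2 libraries of cells transfected with an siRNA against the bacterial gene LacZ (siLacZ 1 and 2). Every library thus came from cells that received an siRNA at 50 nM with 4 uL of RNAiMAX in Opti-MEM, were returned to growth medium after 6 h and were collected at 48 h; the growth medium held horse serum, epidermal growth factor, hydrocortisone, cholera toxin and insulin. All cells were of 1 line, and neither the sequence of the LMNA siRNA nor whether it was a pool is given in the sources used here. Nothing in the labels tells whether both libraries of a group stem from separate cultures; the p-values reflect only the spread among these libraries, which may be technical.

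Keratins are the intermediate filament proteins of epithelial cells. Each filament is built from equal parts of a type I and a type II chain. KRT5 (type II) and KRT14 (type I) form the filaments of the basal layer of stratified epithelia and of basal cells in the mammary gland, and KRT15 is a further type I chain of basal cells, also used as a marker of hair follicle stem cells. KRT6A and KRT6B (type II) and KRT16 and KRT17 (type I) are the stress or activation keratins, low in resting epidermis and induced in keratinocytes at wound edges and in inflamed skin. The filaments are anchored at desmosomes and hemidesmosomes.

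Total counts per library lay between 42.8 and 46.2 (in units of 1e6), and a count of 0 allows for up to 3 counts, which is 0.0649 to 0.0701 CPM (counts scaled to a library of 1e6); floors of this kind cover counting error only. LMNA itself had 61.0 and 58.0 CPM in the siLMNA libraries, against 479 and 524 CPM in the siLacZ libraries, a log2 fold change of -3.07 (SE 0.077; adjusted p = 2.96e-15, edgeR's quasi-likelihood test with Benjamini-Hochberg adjustment). That test called 10068 of 18540 tested genes at an adjusted p under 0.05, with a median log2 fold change of -0.01 over all of them. The defining markers of mammary basal cells were well expressed in every library, TP63 among them at 97.0 and 89.4 CPM in siLMNA and 78.8 and 83.8 CPM in siLacZ libraries. Luminal markers were present in part: GATA3 had 13.5 and 13.4 CPM in siLMNA and 14.5 and 12.9 CPM in siLacZ libraries, and FOXA1 and the luminal keratins KRT8 and KRT18 were counted in every library. The luminal markers PGR and KIT were at 0 counts in all 4 libraries, and ELF5 had at most 2 counts.

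The 7 keratins did not move together. KRT17, KRT6B and KRT6A rose after LMNA siRNA, to 4.00, 3.28 and 1.83 times the siLacZ mean. KRT15 and KRT14 fell, and their siLacZ means were 9.06 and 1.86 times those of the siLMNA libraries. KRT5 and KRT16 did not pass the test. All 7 passed the filter on low counts, and 5 of the 7 were called, 3 up and 2 down, beside 54.3% of all tested genes in either direction, 26.5% upward and 27.8% downward. When the test required a change beyond 1.5-fold, the same 5 members passed, beside 20.7% of all tested genes, 11.4% upward and 9.36% downward. The CPM ranges of the groups did not overlap for the 5 called members, which was also so for 76.0% of all tested genes. In bulk RNA, fewer cells that express a keratin and less keratin RNA per cell cannot be told apart.

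**Figure D1:**
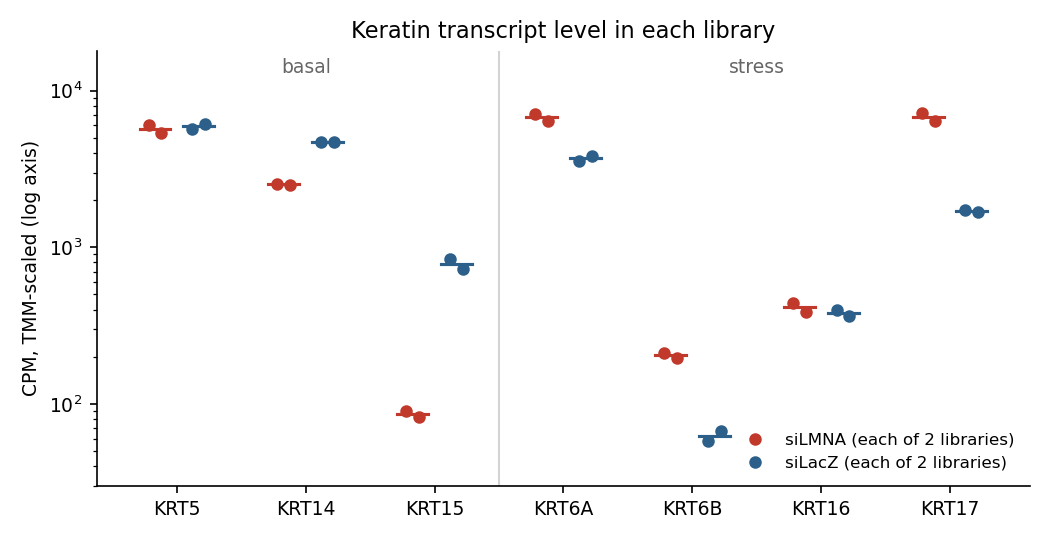
Level of each member in each library as CPM scaled by TMM (log axis); points are single libraries, siLMNA left of siLacZ for each gene, and bars are the means of 2 libraries. KRT17, KRT6A and KRT6B are higher in both siLMNA libraries, KRT14 and KRT15 are lower in both, and the points of KRT5 and KRT16 overlap.

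Among the basal keratins, KRT5 had 6066 and 5383 CPM in the siLMNA libraries, against 5730 and 6149 CPM in the siLacZ libraries. The siLMNA values enclosed one siLacZ value, and the log2 fold change was -0.05 (SE 0.069; adjusted p = 0.550, edgeR). Its sign differed between the library pairs of the same number, 0.08 for siLMNA 1 over siLacZ 1 and -0.19 for siLMNA 2 over siLacZ 2. KRT5 was the member with the smallest change.

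KRT14, the type I partner of KRT5, had 2553 and 2511 CPM in the siLMNA libraries, against 4701 and 4719 CPM in the siLacZ libraries. Both siLMNA libraries lay far below both siLacZ libraries, and the libraries of a group lay close to each other, at 2532 ± 29.3 CPM in siLMNA and 4710 ± 12.5 CPM in siLacZ (SD, n = 2 each). The log2 fold change was -0.90 (SE 0.061; adjusted p = 1.52e-09, edgeR). Of all tested genes, 24.7% had a change of at least this size in either direction.

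KRT15 showed the largest change of the members. It had 90.3 and 82.0 CPM in the siLMNA libraries, against 838 and 722 CPM in the siLacZ libraries, which is 3861 and 3527 counts against 37479 and 34175 counts. The log2 fold change was -3.18 (SE 0.085; adjusted p = 7.64e-15, edgeR), and 1.83% of all tested genes changed by as much or more. No gene other than MIR6510, a microRNA gene within KRT15 on the same strand, overlaps any of the 7 members in the GENCODE 29 annotation.

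Among the stress keratins, KRT17 had 7197 and 6382 CPM in the siLMNA libraries, against 1720 and 1672 CPM in the siLacZ libraries. The groups were far apart, at 6790 ± 576 CPM in siLMNA and 1696 ± 33.8 CPM in siLacZ (SD, n = 2 each). The log2 fold change was 2.00 (SE 0.071; adjusted p = 2.61e-13, edgeR), and 5.60% of tested genes changed by as much or more. Reads assigned to this single gene made up 0.692% and 0.621% of all counts in the siLMNA libraries, against 0.180% and 0.171% in the siLacZ libraries.

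KRT6A, the more abundant of the KRT6 copies, had 7107 and 6383 CPM in the siLMNA libraries, against 3562 and 3819 CPM in the siLacZ libraries, a log2 fold change of 0.87 (SE 0.069; adjusted p = 9.02e-09, edgeR). KRT6B, a close copy of it, had 212 and 197 CPM in the siLMNA libraries, against 58.3 and 66.7 CPM in the siLacZ libraries, with a log2 fold change of 1.71 (SE 0.080; adjusted p = 1.03e-11, edgeR). In both genes each siLMNA library was above each siLacZ library. Changes at least as large were seen in 25.8% of tested genes for KRT6A and in 7.96% for KRT6B.

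KRT16, a type I chain that pairs with KRT6 in wound-edge keratinocytes, had 441 and 386 CPM in the siLMNA libraries, against 398 and 364 CPM in the siLacZ libraries. One siLMNA value lay below one siLacZ value, and the log2 fold change was 0.12 (SE 0.076; adjusted p = 0.201, edgeR). That call depends on the processing: with upper-quartile scaling the log2 fold change was 0.19 and the adjusted p 0.0406, and without siLMNA 2 they were 0.21 and 0.0446. With TMM scaling, KRT16 was the one stress keratin without a called change in the edgeR fit of all 4 libraries.

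**Figure D2:**
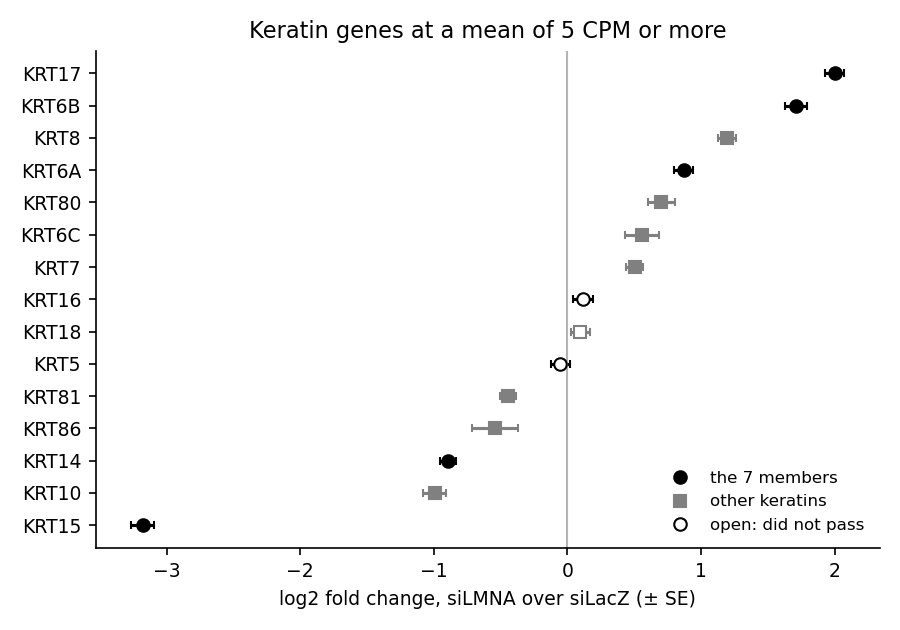
Log2 fold change, siLMNA over siLacZ, with its SE from edgeR (x axis), for each keratin gene with a mean of at least 5 CPM (y axis); circles are the 7 members, squares other keratins, open symbols did not pass. The members span from -3.18 (KRT15) to 2.00 (KRT17).

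The changes altered the order of the members' levels. Compared per kb of exon length, the siLMNA libraries were led by KRT17 at 4476 ± 380 CPM per kb, followed by KRT6A at 2920 ± 221 and KRT5 at 2262 ± 191 CPM per kb (SD, n = 2). KRT14 followed at 1524 ± 17.6 CPM per kb, then KRT16 at 252 ± 23.4, KRT6B at 89.7 ± 4.51 and KRT15, the lowest, at 36.0 ± 2.45 CPM per kb (SD, n = 2). In the siLacZ libraries the order began with KRT14 at 2834 ± 7.51 CPM per kb, KRT5 at 2347 ± 117 and KRT6A at 1598 ± 78.7 CPM per kb (SD, n = 2). There KRT17 was the fourth, at 1118 ± 22.3 CPM per kb, before KRT15 at 326 ± 34.1, KRT16 at 232 ± 14.3 and KRT6B at 27.4 ± 2.62 CPM per kb (SD, n = 2). In either group the 2 libraries of each gene lay wholly above those of the next gene in its order. Per kb of coding length the first place of the siLacZ order was not resolved, with KRT5 at 3356 ± 168 and KRT14 at 3326 ± 8.82 CPM per coding kb and overlapping libraries (SD, n = 2).

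Among the members of each keratin type, the make-up of the transcripts in siLMNA libraries was weighted towards KRT17 and KRT6A. Other keratins of the type are not part of these shares. KRT17 made up 72.0% and 70.3% of the type I members' CPM per kb in the siLMNA libraries, against 24.9% and 24.7% in the siLacZ libraries. KRT14 made up 23.3% and 25.2% in siLMNA, against 62.1% and 63.6% in siLacZ. The type I members were thus headed by KRT17 in both siLMNA libraries and by KRT14 in both siLacZ libraries. KRT15 held 0.573% and 0.572% in siLMNA, against 7.69% and 6.76% in siLacZ, and KRT16 held 4.07% and 3.93% in siLMNA, against 5.31% and 4.96% in siLacZ. Among the type II members, KRT6A made up 55.3% and 55.5% in siLMNA, against 40.2% and 40.2% in siLacZ, and KRT5 made up 43.1% and 42.7% in siLMNA, against 59.1% and 59.1% in siLacZ. KRT6B stayed a minor chain, with 1.67% and 1.74% in siLMNA, against 0.667% and 0.711% in siLacZ.

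**Figure D3:**
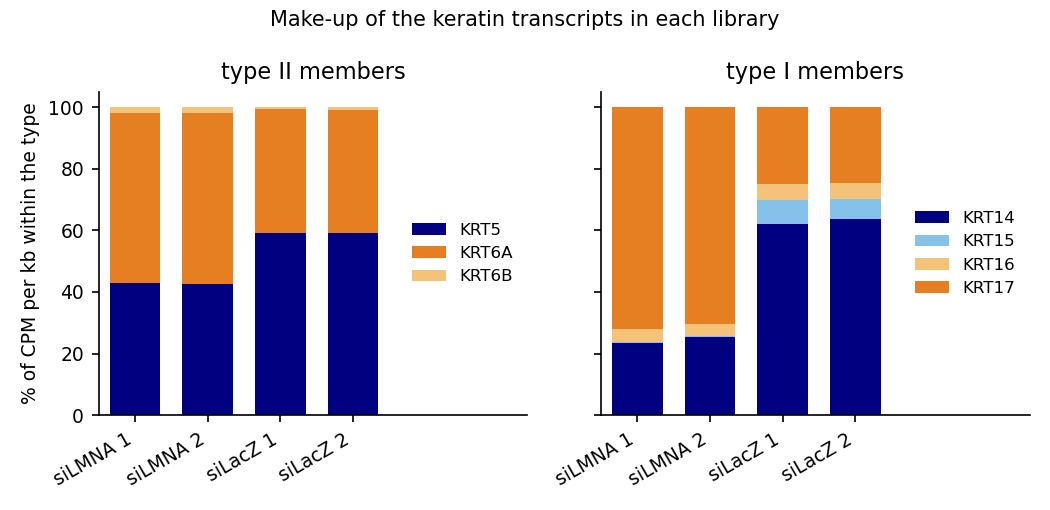
Share of each member in the CPM per kb summed over the members of its keratin type (y axis, %). Each bar is a library (x axis, siLMNA left of siLacZ), blues are basal and oranges stress members. Other keratins are not in the sums. KRT17 fills 70.3% to 72.0% of the type I bar in siLMNA and 24.7% to 24.9% in siLacZ libraries.

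The sum over the 7 members was higher after LMNA siRNA, at 23666 and 21326 CPM in siLMNA, against 17007 and 17513 CPM in siLacZ, a ratio of means of 1.30. The stress members together had 14957 and 13349 CPM in siLMNA, against 5738 and 5922 CPM in siLacZ, 2.43 times as much on average. The basal members together had 8709 and 7977 CPM in siLMNA, against 11269 and 11590 CPM in siLacZ, a log2 difference of -0.45. The sums of the type II members and of the type I members moved alike, by 0.39 and 0.38 on the log2 scale. Keratins outside the 7 members are not part of these sums. The libraries of the groups did not overlap in any of these 5 sums, but with 2 libraries against 2 the exact two-sided permutation test cannot give less than p = 0.333, which is what each gave. No other test of these sums was run.

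Ratios between partner chains were compared in the same way, over 5 ratios of CPM per kb. KRT5 to KRT14 was 1.56 and 1.41 in siLMNA, against 0.800 and 0.856 in siLacZ libraries. KRT5 to KRT15 was 63.5 and 62.1 in siLMNA, against 6.47 and 8.05 in siLacZ. KRT6A to KRT16 was 11.5 and 11.8 in siLMNA, against 6.37 and 7.46 in siLacZ. In these 3 ratios the type II chain was higher relative to its type I partner in both siLMNA libraries, whereas KRT6B to KRT17 was 0.0196 and 0.0206 in siLMNA, against 0.0225 and 0.0265 in siLacZ. The ratio of all type II to all type I members overlapped between the groups, at 0.845 and 0.831 in siLMNA, against 0.841 and 0.921 in siLacZ. The exact two-sided permutation test gave p = 0.667 for that ratio (0.667 after Benjamini-Hochberg adjustment over the 5) and p = 0.333 (adjusted 0.417), the smallest it can give, for the other 4.

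The members lie in the type II cluster of chromosome 12 and the type I cluster of chromosome 17, all on the minus strand (GENCODE 29 on GRCh38, the build hg38 of the deposited data). On chromosome 12, KRT6B lies at chr12:52446651-52452126, KRT6A at chr12:52487174-52493257 and KRT5 at chr12:52514575-52520687, with KRT6C between KRT6B and KRT6A. On chromosome 17, KRT15 lies at chr17:41513743-41522529, KRT14 at chr17:41582279-41586921, KRT16 at chr17:41609778-41615899 and KRT17 at chr17:41619441-41624842. The span from KRT15 to KRT17 is 111 kb and holds both the member that fell most and the member that rose most. KRT16, which did not pass, is separated from KRT17 by 3.54 kb, and KRT14, which fell, from KRT16 by 22.9 kb. In the 74.0 kb from KRT6B to KRT5, KRT6B and KRT6A rose and KRT5, 21.3 kb beyond KRT6A, did not pass.

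**Figure D4:**
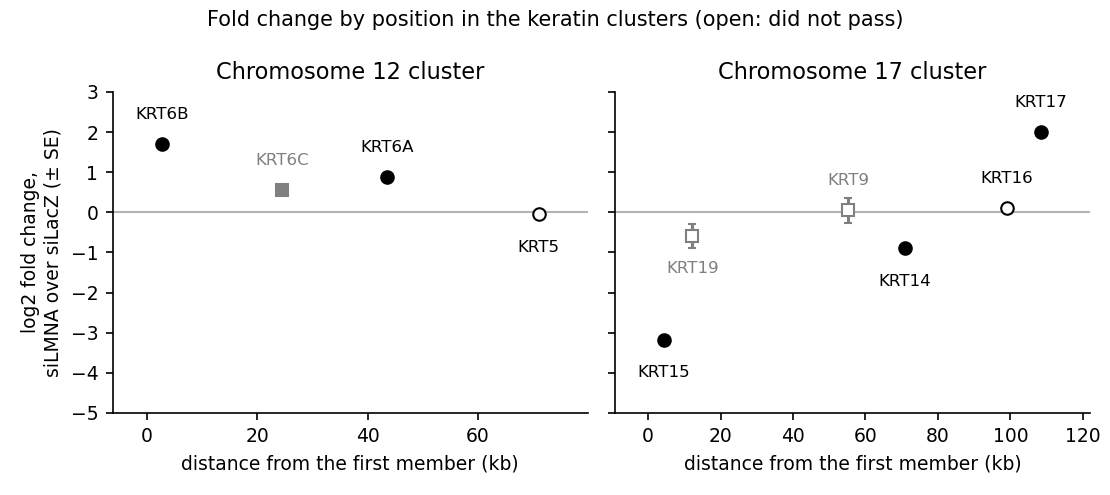
Log2 fold change with SE (y axis, siLMNA over siLacZ) against distance in kb from the first member (x axis) in the 2 keratin clusters; circles are members, squares other tested keratins between them, open symbols did not pass. KRT16 (0.12) and KRT17 (2.00) are neighbours.

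Several members have near-identical copies, and the counting method of the deposited tables is not given in the sources used here, so reads of a copy could be credited to another. The coding sequences of KRT6A and KRT6B are 97.5% identical, differing at 43 of 1695 bases, and their longest identical run is 269 bases. KRT14 and KRT16 are 87.2% identical, with a longest run of 147 bases, KRT14 and KRT17 are 83.8% identical, and KRT16 and KRT17 are 78.0% identical. The stretch of 90 bases in which the KRT6 copies differ most is shown because a read there can tell KRT6A, KRT6B and KRT6C apart. It lies in exon 2 of each gene, at chr12:52491532-52491621 for KRT6A, chr12:52450416-52450505 for KRT6B and chr12:52472076-52472165 for KRT6C (GRCh38, minus strand, GENCODE 29 transcripts), and capitals mark the 10 positions at which the copies differ.
KRT6A: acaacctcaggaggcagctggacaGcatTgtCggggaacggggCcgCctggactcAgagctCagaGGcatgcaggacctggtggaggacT
KRT6B: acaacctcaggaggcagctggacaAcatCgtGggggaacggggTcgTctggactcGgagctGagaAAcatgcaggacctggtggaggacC
KRT6C: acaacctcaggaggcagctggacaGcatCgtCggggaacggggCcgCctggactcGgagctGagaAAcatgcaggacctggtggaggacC

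For the type I chains, the stretch of 90 bases with the fewest differences among KRT14, KRT16 and KRT17 is shown because reads within it separate these genes least. It lies in exon 1, at chr17:41586394-41586483 for KRT14, chr17:41612242-41612331 for KRT16 and chr17:41624162-41624251 for KRT17 (GRCh38, minus strand, GENCODE 29 transcripts), and capitals mark the 5 positions at which the 3 genes differ.
KRT14: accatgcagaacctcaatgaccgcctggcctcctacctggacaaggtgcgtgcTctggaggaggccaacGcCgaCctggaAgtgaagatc
KRT16: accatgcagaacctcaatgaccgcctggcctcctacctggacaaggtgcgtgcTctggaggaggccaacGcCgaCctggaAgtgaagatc
KRT17: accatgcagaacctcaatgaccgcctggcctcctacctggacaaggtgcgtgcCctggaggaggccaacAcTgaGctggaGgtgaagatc

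KRT14 and KRT16 are identical over this stretch, while KRT17 differs from both. Over whole transcripts, 39.1% of the 50-base windows of KRT6A and 47.1% of those of KRT6B also occur in a transcript of another gene, which drops to 18.2% and 24.6% for windows of 100 bases. KRT14 shares 23.8% of its 50-base windows and 5.95% of its 100-base windows, KRT16 shares 22.0% and 7.18%, and KRT17 shares 17.4% and 0.353%. KRT5 shares 3.99% and 1.44%, and KRT15 shares 0.725% of its 50-base windows and none of its 75-base windows. Of the 2 members with the largest changes, KRT15 shares none of its 100-base windows and KRT17 shares 0.353%. KRT6B, with the next largest change, shares 24.6%. The part of shared sequence in the changes was not tested. The read length is not given in the sources used here.

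**Figure D5:**
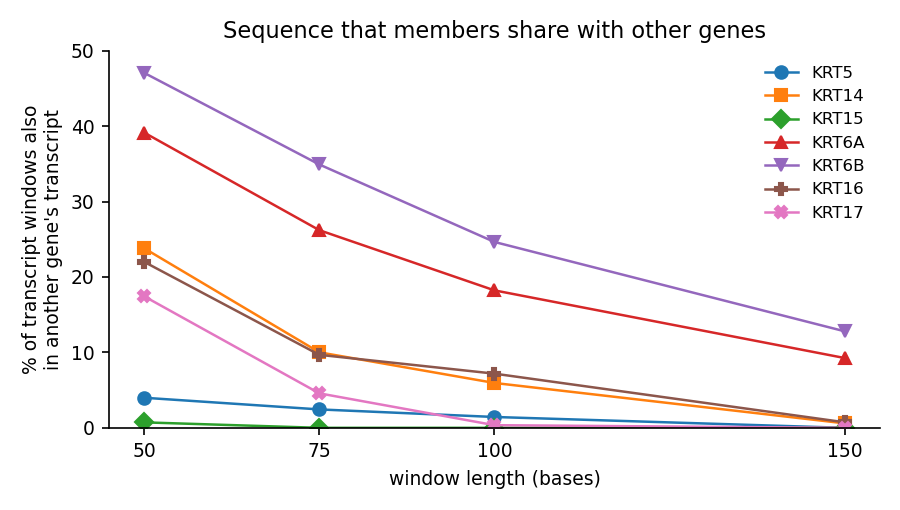
Share of each member's transcript windows that also occur in a transcript of another gene (y axis, %), by window length in bases (x axis), from GENCODE 29 transcripts. KRT6B and KRT6A share most at every length, from 47.1% and 39.1% at 50 bases; KRT15 shares none from 75 bases on.

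The counts of these copies relative to each other differed between the groups. KRT6B counts were 2.98% and 3.09% of KRT6A counts in the siLMNA libraries, against 1.64% and 1.75% in the siLacZ libraries. KRT16 counts were 17.3% and 15.4% of KRT14 counts in siLMNA, against 8.46% and 7.72% in siLacZ, and KRT17 counts were 282% and 254% of KRT14 counts in siLMNA, against 36.6% and 35.4% in siLacZ. In all 3 ratios the siLMNA libraries lay above the siLacZ libraries. Summed and tested as 1 gene, KRT6A, KRT6B and KRT6C had a log2 fold change of 0.89 (SE 0.069; adjusted p = 6.85e-09, edgeR). The sum of KRT14, KRT16, KRT17 and their named pseudogenes, 17 genes in all, rose by 0.52 (SE 0.065; adjusted p = 2.42e-06, edgeR), a direction opposite to that of KRT14 alone. KRT17 with its own pseudogenes gave 2.00 (SE 0.071), and KRT16 with its own gave 0.12 (SE 0.075). The pseudogenes KRT17P1, KRT17P2 and KRT17P3 were called too, with log2 fold changes of 1.53, 1.88 and 2.57, at counts of at most 109 in any library, as was KRT16P6 (0.67, SE 0.26).

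Of the 48 other keratin genes, 31 had too few counts to be tested, and of the 17 tested 6 rose, 7 fell and 4 did not pass, beside 26.5% of all tested genes that rose and 27.8% that fell. KRT8, a type II keratin of simple epithelia, had 998 and 929 CPM in siLMNA, against 433 and 410 CPM in siLacZ, a log2 fold change of 1.19 (SE 0.068). KRT18, its type I partner, had 255 and 240 CPM in siLMNA, against 224 and 238 CPM in siLacZ, and did not pass (0.10, SE 0.069). The simple type II keratin KRT7 had 2318 and 2143 CPM in siLMNA, against 1585 and 1560 CPM in siLacZ (0.50, SE 0.065). Both simple type II keratins thus rose, while of their type I counterparts KRT18 and KRT19 (-0.59, SE 0.30) neither passed. This contrast depends on the processing: with upper-quartile factors 3 simple keratins were called higher. KRT19 was low, at 1.38 and 1.28 CPM in siLMNA, against 1.48 and 2.52 CPM in siLacZ. KRT10, the type I keratin of suprabasal, differentiating epidermis, had 40.4 and 33.4 CPM in siLMNA, against 75.6 and 71.4 CPM in siLacZ (-0.99, SE 0.088). KRT6C, the third KRT6 copy, had 15.8 and 12.2 CPM in siLMNA, against 9.88 and 9.17 CPM in siLacZ (0.56, SE 0.13), and with 0.222% and 0.192% of the KRT6A counts in siLMNA, against 0.277% and 0.240% in siLacZ, its values rest on few reads beside a near-identical abundant copy.

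KRT81, a hair keratin, had 4124 and 4098 CPM in siLMNA, against 5653 and 5528 CPM in siLacZ (-0.44, SE 0.061). Its close relatives KRT86 (-0.54, SE 0.17) and KRT83 (-0.92, SE 0.49) were lower in level, at most 18.7 and 6.37 CPM in any library. KRT83 did not pass. KRT86 was called lower, with 10.9 and 9.58 CPM in siLMNA, against 18.7 and 11.1 CPM in siLacZ, so siLacZ 2 lay close to siLMNA 1. KRT81 lies within the KRT86 locus on the opposite strand, and the part of KRT81 reads in the KRT86 counts was not tested. KRT80 rose with a log2 fold change of 0.70 (SE 0.10). At a mean under 5 CPM, the hair keratin KRT34 had 282 and 281 counts in siLMNA, against 46 and 34 counts in siLacZ (2.91, SE 0.22), and KRT75, a keratin of the hair follicle, had 20 and 18 counts in siLMNA, against 2 and 5 counts in siLacZ (2.50, SE 0.68). KRT13, of internal stratified epithelia, fell, with 19 and 29 counts in siLMNA, against 68 and 59 counts in siLacZ (-1.30, SE 0.37). KRT12, the corneal keratin, fell as well, with 3 and 9 counts in siLMNA, against 22 and 19 counts in siLacZ (-1.65, SE 0.64). KRT24, with 1 and 0 counts in siLMNA, against 10 and 28 counts in siLacZ, and KRT222, with 0 and 4 counts in siLMNA, against 32 and 21 counts in siLacZ, were also called lower. KRT9 (0.05, SE 0.31) did not pass. With the 7 members included, 9 of 24 tested keratins rose and 9 fell, beside the same 26.5% and 27.8% of all tested genes.

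The keratins were set beside 6 lists of genes that work with them, counted in the same edgeR fit. The list of keratin anchorage and filament organisation had 18 tested genes, of which 7 rose and 7 fell, beside 26.5% and 27.8% of all tested genes; their median log2 fold change was -0.16, against -0.01 for all tested genes. PKP2, a desmosomal plaque protein, had 39.1 and 43.5 CPM in siLMNA, against 129 and 140 CPM in siLacZ (-1.70, SE 0.079). EPPK1, the keratin-binding cytolinker epiplakin, had 127 and 124 CPM in siLMNA, against 43.5 and 53.3 CPM in siLacZ (1.37, SE 0.087). CD151, a tetraspanin of hemidesmosomes, rose (0.99, SE 0.067), and TRIM29, a keratin-associated protein of basal cells, fell (-0.74, SE 0.072).

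The regulators of basal and stress keratin genes had 28 tested members, of which 15 rose and 6 fell, beside 26.5% and 27.8% of all tested genes; the median was 0.24. GLI2, the Hedgehog-pathway transcription factor, had 18.8 and 15.7 CPM in siLMNA, against 0.335 and 0.528 CPM in siLacZ (5.30, SE 0.20). JUN, an AP-1 subunit, had 201 and 190 CPM in siLMNA, against 38.0 and 42.6 CPM in siLacZ (2.28, SE 0.079). KLF4 (1.49, SE 0.092) and FOSL2, another AP-1 subunit (1.16, SE 0.075), rose as well. Of the other AP-1 subunits on the list, FOS (-0.98, SE 0.082) and FOSL1 (-0.82, SE 0.086) fell, JUNB (1.06, SE 0.068) and JUND (0.45, SE 0.079) rose, and FOSB (-0.29, SE 0.26) did not pass. These 5 were named after their values were seen. TP63, the transcription factor of basal epithelial identity, changed little, with a log2 fold change of 0.20 (SE 0.074; adjusted p = 0.0328, edgeR), and passed.

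Of 21 tested keratinocyte activation ligands and effectors, 8 rose, 8 fell and 5 did not pass, with a median of -0.17; for this list and those that follow, the share of all tested genes was 26.5% for a rise and 27.8% for a fall. The cytokine gene IL1B had 68.0 and 77.6 CPM in siLMNA, against 15.7 and 18.2 CPM in siLacZ (2.10, SE 0.093), and IL1RN, whose product antagonizes the interleukin-1 receptor, had 4.58 and 5.70 CPM in siLMNA, against 21.1 and 21.9 CPM in siLacZ (-2.06, SE 0.12). S100A7 (psoriasin), like the stress keratins a gene of inflamed epidermis, fell (-2.11, SE 0.14), and SERPINB4, a serine protease inhibitor, rose (1.65, SE 0.19). The list therefore did not move one way. Of 11 tested keratin kinases and modifiers, 2 rose, 6 fell and 3 did not pass, with a median of -0.17. TGM1, the transglutaminase that crosslinks the cornified envelope, had 24.2 and 24.2 CPM in siLMNA, against 179 and 170 CPM in siLacZ (-2.85, SE 0.077). RPS6KA1 (-0.51, SE 0.075) fell and YWHAZ, a 14-3-3 protein, rose (0.44, SE 0.062). Of 4 tested simple epithelial keratins 2 rose and 0 fell, with a median of 0.30, and of 8 tested suprabasal and other stratified keratins 3 rose and 4 fell, with a median of -0.47.

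Markers of cell types were counted beside these results, in a background of 26.5% of all tested genes that rose and 27.8% that fell. Of the 9 basal mammary markers, KRT5 and KRT14 included, 7 rose, 1 fell (KRT14) and 1 did not pass (KRT5), and their summed level was 31111 and 30251 CPM in siLMNA, against 16697 and 18014 CPM in siLacZ. LAMB3, a chain of a basement membrane laminin, was among those that rose (1.82, SE 0.068). Of 6 fibroblast markers, 4 were tested and all 4 rose, with a summed level of 765 and 766 CPM in siLMNA, against 175 and 177 CPM in siLacZ. DCN (1.97, SE 0.067), COL1A1 (3.29, SE 0.082), LUM (2.09, SE 0.21) and PDGFRA (3.41, SE 0.85) were those, COL1A2 had 10 and 20 counts in siLMNA and 0 in siLacZ libraries, and COL3A1 was at 0 in all 4. Of 6 tested luminal markers KRT8 and ESR1 rose and 0 fell, with a sum of 1279 and 1195 CPM in siLMNA, against 684 and 675 CPM in siLacZ. Endothelial markers summed to 6.95 and 6.70 CPM in siLMNA, against 4.74 and 3.97 CPM in siLacZ, with 2 of 3 tested called higher. Of the leukocyte markers, PTPRC had at most 1 count, CD3E had 0, and CD14 alone was tested. CD14 was called higher (0.28, SE 0.095), with 33.7 and 27.8 CPM in siLMNA, against 25.2 and 25.6 CPM in siLacZ. The part of these markers in the keratin changes was not tested.

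For each member, the genes whose profile over the 4 libraries was most like its own were found by the Euclidean distance between log2 CPM values centred on each gene's mean, among 4487 genes with a mean of at least 50 CPM. With 2 libraries in each group, a short distance requires a similar log2 fold change between the groups. Nearest to KRT15 (-3.18) were LMNA (-3.07), the gene targeted by the siRNA, at a distance of 0.268, and TGM1 (-2.85) at 0.374. A link of KRT15 to LMNA beyond the similar fold change was not tested. Nearest to KRT17 were ULK1 (0.0881) and DCBLD1 (0.0985), and nearest to KRT6B were SIPA1L2 (0.0513) and BICC1 (0.0677). SERPINH1 was closest to KRT6A (0.00540), followed by CLCN7 (0.0314), and ASUN was close to KRT14 (0.0206). KRT5 was followed most closely by GIT1 (0.0292) and ALKBH5 (0.0294), and KRT16 by SFSWAP (0.0488) and GIPC1 (0.0688). KRT15 had the most distant neighbours of the 7 members.

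The authors' deposited table for each pair of libraries gives its own log2 fold change, without replicates. In the authors' deposited table of pair 1 it was 2.06 for KRT17, 1.86 for KRT6B, 0.99 for KRT6A, -0.89 for KRT14 and -3.22 for KRT15, and in that of pair 2 it was 1.88, 1.51, 0.68, -0.97 and -3.20 for the same genes. KRT5 had 0.08 and -0.25 and KRT16 had 0.14 and 0.03 in the authors' deposited tables of pairs 1 and 2. Each called member had the same sign in both tables, while KRT5 did not.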

How the data were processed

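The authors deposited 2 tables, each for the siLMNA and the siLacZ library of the same number, with raw read counts per gene, per the file headers. Both tables, per the file headers, further hold normalized counts, which are a signal made from each count with 1 scaling factor per library, and the authors' log2 fold change within the pair. The submitters' processing notes name the build hg38. The aligner, counter, annotation and strand setting were not given in the sources used here. Reads from the opposite strand of a gene therefore could not be set apart. In 1 table, 3 columns without a name were not used. Rows were checked for whether count and normalized value matched (relative tolerance 1e-06; fold changes within 0.05 on the log2 scale above 20 reads); 6 genes, none a member, failed for a count and were left out.

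All 4 libraries were fitted with edgeR 4.0.16 (R 4.3.3): TMM factors, filterByExpr, the group as the only term, the quasi-likelihood test, and Benjamini-Hochberg adjustment over 18540 genes at 0.05; the pipeline was tested on simulated data. CPM are TMM-scaled, and an SE is the size of the log2 fold change divided by the square root of F. Exact permutation tests were two-sided over libraries (scipy 1.17.1). The counts of the 2 libraries in each group were further apart than sampling noise gives (chi-square over its degrees of freedom 6.42 in siLMNA and 8.42 in siLacZ), and each library was 1 sample. Gene identifiers were matched to GENCODE 29 (57447 of 58051), whose transcripts gave coordinates, exon and coding lengths, shared windows and, aligned with mafft 7.526, identities. Alternatives were DESeq2 1.42.0, DESeq2-type and upper-quartile factors, no filter, a replicate block, a null of 1.5-fold, the 6 genes kept, summed copies and each library left out. The members and lists were chosen with earlier results of these data known. Named genes were the members, all tested keratins, from each list the 4 called genes with the largest change at a mean of at least 5 CPM (plus TP63 and markers), and the 2 nearest profiles per member; pseudogenes were named after their values were seen. Some genes that this rule names are not reported here.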

Additional observations from a re-analysis of the deposited data

How the results depend on the processing

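KRT14, KRT15, KRT6A, KRT6B and KRT17 kept their direction and their call under every alternative run on the single genes, with an adjusted p of at most 0.0116 (KRT6A); leaving out each library in turn gave -0.91 to -0.87 for KRT14, -3.26 to -3.08 for KRT15, 0.79 to 0.94 for KRT6A, 1.60 to 1.83 for KRT6B and 1.91 to 2.08 for KRT17. In such a fit the lone library of a group is assumed to vary like the other group. Only the summed copies changed a called direction: KRT14, KRT16 and KRT17 with their pseudogenes gave 0.52, against -0.90 for KRT14 alone, since KRT17 reads exceed those lost from KRT14. KRT5, never called, had 0.016 with upper-quartile factors and -0.143 to 0.029 with a library left out. KRT16 was called with upper-quartile factors (0.19) and without siLMNA 2 (0.21), its range with a library left out being 0.020 to 0.21; the cause was not tested. For the log2 ratio of all type II to all type I members, the siLMNA mean minus the siLacZ mean was 0.011 by counts, against -0.07 per kb. With a library left out, this difference per kb was -0.136 to -0.0053. The 1.5-fold null called 2111 genes higher and 1735 lower; with a library left out 3182 to 4283 were higher and 3121 to 4696 lower, the lowest of each without siLacZ 2. Under the 1.5-fold null the lists gave 1 simple keratin higher, 1 suprabasal or other stratified keratin higher and 2 lower, and 2 anchorage genes higher and 2 lower. They also gave 7 regulators higher and 4 lower, 7 activation genes higher and 5 lower, and 0 kinases or modifiers higher and 1 lower. Of all tested genes, 11.4% were higher and 9.36% lower under that null. With DESeq2, and with no filter, 1 kinase or modifier was higher. With upper-quartile factors, 3 simple keratins were higher. With a library left out, 1 kinase or modifier was higher and 2 to 5 lower, 0 to 1 simple keratins lower, 1 to 3 suprabasal or other stratified keratins higher and 1 to 5 lower, and 4 to 8 anchorage genes lower. The labels do not tie libraries of the same number together, and their deviations had a correlation of -0.113 over 10901 genes; with the replicate number as a block 4870 genes rose and 5092 fell and KRT17 stayed at 2.00, and with crossed numbers, added after seeing the data, 5147 rose and 5398 fell.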
